A study of Homo sapiens with 2 samples.

Results

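The zinc finger genes of human chromosome 19 were examined in TFK1 cells, an established cholangiocarcinoma line, with and without knockdown of MBD2. A gene was included when the deposited tables place it on chromosome 19 and its symbol is ZNF followed by digits. This gave 243 of the 56638 genes in the tables. The study compared cells carrying a short hairpin RNA against MBD2 (sh-MBD2) with cells carrying a negative control hairpin (sh-NC). Both hairpins were delivered with lentivirus. The study's methods name selection of infected cells with puromycin or another antibiotic, without saying which was used for these cultures. The labels list no other treatment. Total RNA was sequenced from 1 library per condition, and the labels do not name the hairpin used. No difference below therefore has a replicate check, and no p-value is given. An effect of the knockdown cannot be told apart from any other difference between the 2 cultures.

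Zinc finger proteins of the C2H2 type hold each finger together with a zinc ion, and their strings of fingers bind DNA. Many encoded on chromosome 19 also carry a KRAB domain. This domain binds the corepressor TRIM28, which brings in the histone methyltransferase SETDB1 and heterochromatin proteins, and much of this silencing falls on transposable elements. The genes arose by repeated tandem duplication and lie side by side in clusters. MBD2 reads methylated CpG dinucleotides and can recruit the NuRD deacetylase complex, and promoters of several zinc finger genes in these clusters are known to be methylated in tumors. Comparing sh-MBD2 with sh-NC asks which of these genes differ when the reader is reduced.

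The libraries held 14728814 counts (sh-MBD2) and 14467406 counts (sh-NC). MBD2 had 365 and 1013 counts, or 15.6 and 44.6 TPM, a log2 fold change of sh-MBD2 over sh-NC (log2FC) of -1.48 with a 95% counting interval of -1.66 to -1.31. Such an interval is computed from how the reads of a gene divide over the 2 libraries, and it covers counting error only. All 10 biliary epithelial markers were detected, KRT8 and KRT7 most strongly, with a summed level of 4846 TPM in sh-MBD2 and 6053 TPM in sh-NC. Of these markers, 6 had an interval below 0 and 3 above, against 18.4% and 19.7% of all genes with at least 10 counts. Intervals narrow as counts rise, and KRT8 had 49193 counts in sh-MBD2 and 62047 in sh-NC. The part of these marker differences in the results below was not tested. Of the 5 hepatocyte markers, ALB had 3 and 0 counts and SERPINA1 39 and 11. No leukocyte or endothelial marker had more than 1 count in a library, and no fibroblast marker more than 6. Differences in the share of cells of a kind and in RNA per cell cannot be told apart in bulk RNA. Counts and TPM are given with sh-MBD2 first.

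The promoters of the members to which the results return are shown first, since CpG dinucleotides are what MBD2 reads when methylated. Each line is the 250 bases before the start of the gene in RefSeq (GRCh38.p14), 5′ to 3′ on the strand of the gene, with every CG in capitals. ZNF304 (chr19:57351021-57351270, plus strand) and ZNF583 (chr19:56403764-56404013, plus strand) had the largest positive log2FC among members with at least 50 counts, and ZNF460 (chr19:57279732-57279981, plus strand) the lowest. ZNF91 (chr19:23395472-23395721, minus strand) and ZNF208 (chr19:22010944-22011193, minus strand) border a stretch of genes with almost no reads.
ZNF304: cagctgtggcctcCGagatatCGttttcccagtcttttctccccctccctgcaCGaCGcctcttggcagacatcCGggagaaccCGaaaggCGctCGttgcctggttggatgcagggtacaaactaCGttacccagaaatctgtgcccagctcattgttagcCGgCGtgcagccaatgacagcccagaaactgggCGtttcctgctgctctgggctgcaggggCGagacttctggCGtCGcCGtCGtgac
ZNF583: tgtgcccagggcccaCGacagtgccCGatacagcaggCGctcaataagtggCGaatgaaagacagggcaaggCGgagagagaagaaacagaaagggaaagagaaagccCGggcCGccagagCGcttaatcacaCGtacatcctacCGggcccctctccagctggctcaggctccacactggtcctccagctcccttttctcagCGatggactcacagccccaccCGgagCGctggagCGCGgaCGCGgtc
ZNF460: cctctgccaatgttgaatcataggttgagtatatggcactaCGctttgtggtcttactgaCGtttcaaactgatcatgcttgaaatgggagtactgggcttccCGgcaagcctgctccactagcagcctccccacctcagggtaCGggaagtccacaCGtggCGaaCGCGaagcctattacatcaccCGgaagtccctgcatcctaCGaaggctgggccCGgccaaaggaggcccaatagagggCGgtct
ZNF91: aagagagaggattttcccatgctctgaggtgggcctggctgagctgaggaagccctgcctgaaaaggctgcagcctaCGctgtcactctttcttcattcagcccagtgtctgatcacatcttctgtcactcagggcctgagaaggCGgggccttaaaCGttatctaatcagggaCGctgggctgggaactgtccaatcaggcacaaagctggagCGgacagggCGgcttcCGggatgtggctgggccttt
ZNF208: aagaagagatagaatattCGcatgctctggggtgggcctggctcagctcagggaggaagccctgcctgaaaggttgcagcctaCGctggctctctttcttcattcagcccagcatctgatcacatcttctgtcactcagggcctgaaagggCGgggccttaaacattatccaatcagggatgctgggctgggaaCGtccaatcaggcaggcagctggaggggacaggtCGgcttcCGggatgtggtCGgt
The windows of ZNF304 and ZNF583 each hold 17 CG dinucleotides and that of ZNF460 holds 12, whereas those of ZNF91 and ZNF208 hold 7 each. ZNF91 and ZNF208 shared 85.6% of the positions in a global alignment of these windows. ZNF304 shared 44.1% with ZNF583 and 42.0% with ZNF91. The sequences give the reference letters only, and methylation was not measured in these libraries.

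Many of the genes were not read at all. Of the 243 members, 58 (23.9%) had 0 counts in both libraries, and 74 had at most 3 counts in each. For comparison, 15 of the 240 ZNF genes on other chromosomes (6.25%) had 0 counts in both. So did 51.8% of all 56638 genes and 45.3% of the other genes of chromosome 19, and 36761 of all genes had at most 3 counts in each. The members were thus read less often than other ZNF genes but more often than genes at large. A count of 0 allows up to 3 counts, or 0.204 CPM in sh-MBD2 and 0.207 CPM in sh-NC. A total of 163 members (67.1%) reached 10 counts summed over the libraries and enter the log2FC values below. This compares with 216 (90.0%) of the ZNF genes elsewhere, 37.3% of the other genes of chromosome 19 and 31.0% of all genes.

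Most members were of low level or had no reads. Of all 243 members in sh-MBD2, 97 were under 1 TPM, which includes the 58 with 0 counts in both libraries. A further 108 lay between 1 and 10 TPM, 31 between 10 and 30 TPM and 7 at 30 TPM or more. The numbers in sh-NC were 99, 109, 29 and 6. ZNF146, which encodes a short protein made almost wholly of zinc fingers, stood far above all others at 206 and 198 TPM. ZNF787 had 50.5 and 40.3 TPM, ZNF302 39.1 and 41.2, ZNF507 36.3 and 43.5, ZNF580 35.3 and 37.5, and ZNF581 30.4 and 35. All 243 together gave 1414 TPM in sh-MBD2 and 1376 TPM in sh-NC. They took 0.20% and 0.19% of all counts. Across the 163 members with at least 10 counts, log2 levels in the libraries correlated with a Pearson r of 0.958. This is a correlation across genes, which are not independent replicates.

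**Figure D1:**
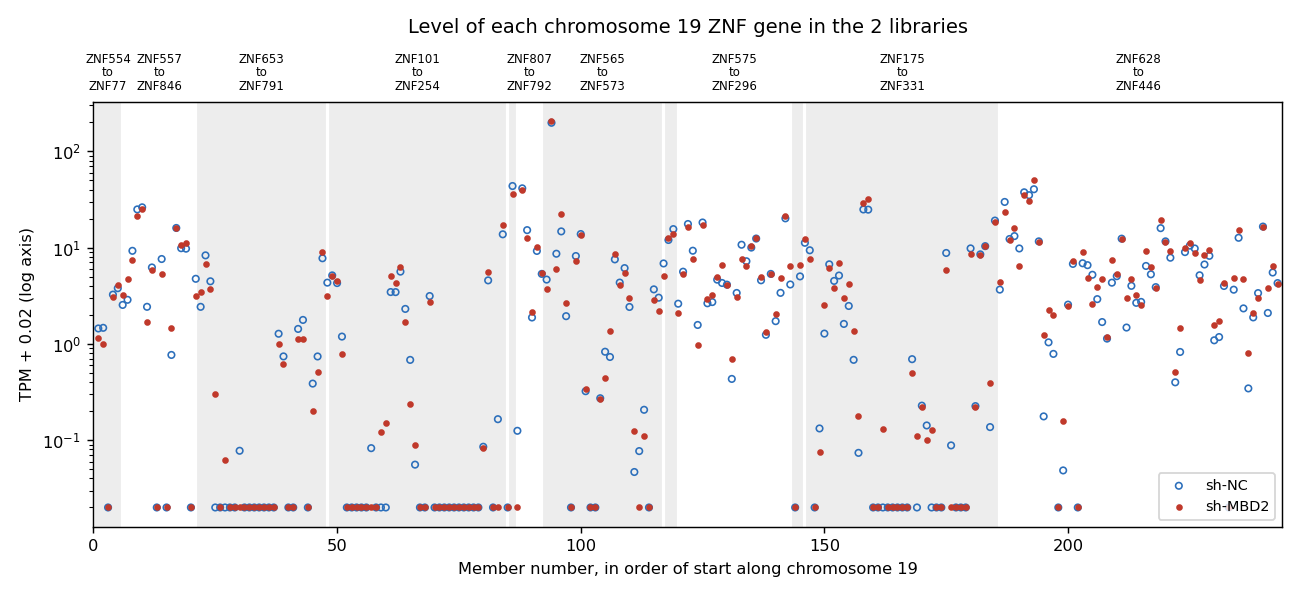
Level of each member in TPM (log axis, a small constant added so that 0 can be drawn) against its order of start along chromosome 19, with open circles for sh-NC and filled points for sh-MBD2. Grey and white bands are groups of neighbours, and genes with no reads lie on the bottom line, in runs between ZNF653 and ZNF254 and between ZNF175 and ZNF331.

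Silent and expressed genes were arranged in blocks along the chromosome. Members were put in 1 group of neighbours when the starts of adjacent members lay no more than 1 Mb apart in the deposited coordinates. These positions come without a named build and differ from GRCh38, so positions in Mb serve only to place the groups. The order of neighbours was the same in both sets of coordinates for all members matched. The group ZNF101 to ZNF254 (19.8 to 24.3 Mb) had 36 members, of which 25 had at most 3 counts in each library. In the group ZNF653 to ZNF791 (11.6 to 12.8 Mb), 15 of 26 members were at that floor. The group ZNF175 to ZNF331 (52.1 to 54.1 Mb) had 19 of 39 there. All 24 members of the group ZNF575 to ZNF296 (44.0 to 45.6 Mb) reached 10 counts. In the last group, ZNF628 to ZNF446 (56.0 to 59.0 Mb), 54 of 58 did.

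The longest unbroken run at the floor was ZNF491 to ZNF625, where 12 neighbouring genes together had 1 count in each library. The run ZNF208 to ZNF91 held 11 genes with 2 counts in each library, both libraries' reads being on ZNF91. ZNF253 to ZNF85 held 9 genes with 3 and 1 counts. ZNF610 to ZNF83 held 8 genes with 3 and 0 counts.

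**Figure D2:**
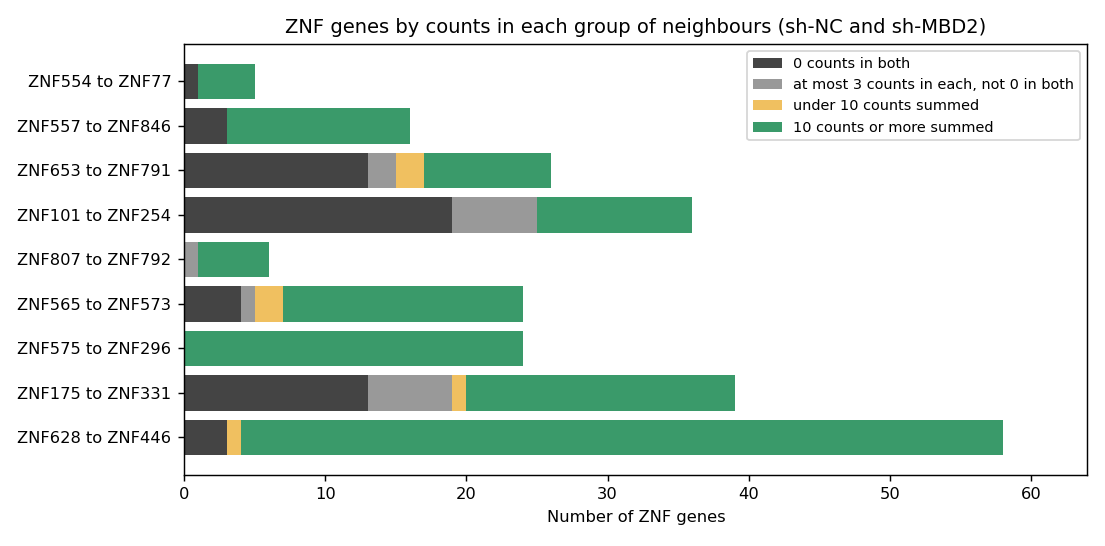
Number of members in each group of neighbours by their counts in the 2 libraries, for groups of 5 or more members. The group ZNF101 to ZNF254 has 19 members without a read and the group ZNF575 to ZNF296 has none.

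Few genes crossed from silent to expressed. Of the 79 members with at most 3 counts in sh-NC, 1 (1.27%) reached 10 counts in sh-MBD2, against 195 of 38166 genes (0.511%) over the whole table. It was ZNF542, a transcribed pseudogene next to ZNF582, with 24 and 3 counts and a ratio of 7.95 with a counting interval of 2.42 to 41.3. ZNF542 overlaps ZNF582 in the deposited coordinates, and whether counting used strand is not given in the sources used here, so their reads may be mixed. ZNF441, a KRAB gene in the group ZNF653 to ZNF791, had 7 and 0 counts. In the other direction, 0 of the 77 members with at most 3 counts in sh-MBD2 reached 10 counts in sh-NC, against 147 genes (0.386%) over the table.

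Promoter CpG content differed between the blocks. RefSeq promoters (300 bases around the start) were found for 209 members, 34 of which have several, and the first listed was used. Their median ratio of observed to expected CpG was 0.765, against 0.580 over all 27305 promoters. Members with at least 10 counts had a median of 0.798 (147 genes) and members with fewer had 0.614 (62 genes). The lowest median of the groups was 0.437, in ZNF101 to ZNF254. ZNF653 to ZNF791 had 0.609. The group ZNF175 to ZNF331, with many silent genes, had 0.849, and the last group had 0.830. Beside the median of all members, a low CpG ratio thus went with silence at 11.6 to 12.8 Mb and 19.8 to 24.3 Mb. It did not in the group of 52.1 to 54.1 Mb. Of these 3 groups, only that of 19.8 to 24.3 Mb had a median below that of all promoters.

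Members of high and low CpG ratio had equal median differences between the libraries. The 85 measured members at or above the median ratio had a median log2FC of 0.072, and the 62 below it also 0.072. Spearman's rho between the ratio and log2FC was 0.119 over 147 genes that share both libraries. ZNF304 and ZNF460, with the highest and the lowest log2FC among members with at least 50 counts, had ratios of 0.794 and 0.534. ZNF544 and ZNF582, both higher in sh-MBD2, had 0.926 and 0.974, whereas ZNF583, also higher, lay below the median ratio. Of members lower in sh-MBD2, ZNF160 and ZNF566 had 0.850 and 0.877, and ZNF266 had 0.646. High and low ratios were thus found on both sides.

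The members as a whole differed little between the libraries. Their median log2FC was 0.072 with quartiles of -0.15 and 0.34, against -0.0082 for all 17545 genes with at least 10 counts. The ZNF genes of other chromosomes had a median of 0.0050 and the other genes of chromosome 19 a median of 0.0001. Summed over the members, 29512 and 27829 counts gave a log2FC of 0.076 (counting interval 0.052 to 0.10). Of the 163 members, 92 had a positive log2FC.

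Large differences were about as common among the members as among all genes on the higher side, and less common on the lower side. A log2FC above 1 was found in 10 members (6.13%), against 5.48% of all genes. A log2FC below -1 was found in 1 member (0.614%), against 5.07% of all genes. Of the 216 measured ZNF genes of other chromosomes, 6 (2.78%) lay above 1 and 1 (0.463%) below -1. The counting interval lay above 0 for 32 members (19.6%), against 19.7% of all genes, and below 0 for 12 members (7.36%), against 18.4%. For the ZNF genes of other chromosomes the shares of intervals above and below 0 were 13.9% and 12%. Members had a median of 188 counts summed and all genes 431, and intervals widen as counts fall. Among genes with a mean of 5 TPM or more, intervals below 0 were found in 12.5% of 80 members and in 22.4% of 11518 genes, and intervals above 0 in 21.3% and 23.9%. Among those of 2 to 5 TPM, intervals above 0 were found in 21.3% of 47 members and 12.3% of 2507 genes. Intervals below 0 were found in 4.26% and 13.5% of these. Under 2 TPM the shares above 0 were 13.9% of 36 members and 11% of 3520 genes, and below 0 they were 0% and 9.09%. These classes do not match the counts. From the highest class to the lowest, median summed counts were 405, 157 and 36 for members, and 1025, 75 and 22 for all genes.

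The last group of neighbours had the highest median. In this group, ZNF628 to ZNF446, 40 of 54 measured members (74.1%) had a positive log2FC and the median was 0.25. The interval lay above 0 for 15 (27.8%) and below 0 for 3 (5.56%). The other 109 measured members had a median of -0.0083, with 52 positive (47.7%), 17 intervals above 0 and 9 below. The last group summed to 7946 and 6924 counts, a log2FC of 0.19 (interval 0.14 to 0.24). The 39 measured genes of other kinds that lie in the same span had a median of -0.0086, with 18 positive, 3 intervals above 0 and 4 below. This contrast between the groups was noticed in these libraries and has no test.

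**Figure D3:**
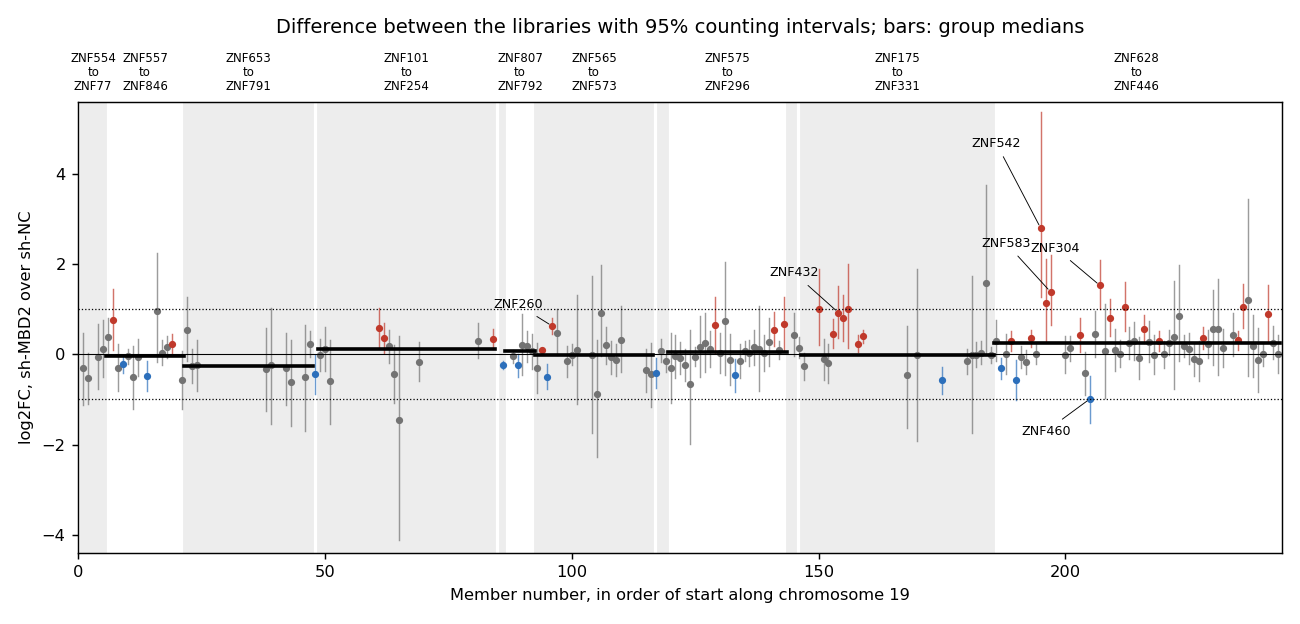
Log2FC (sh-MBD2 over sh-NC) of the 163 members with at least 10 counts against their order along chromosome 19, with 95% counting intervals as vertical lines. Red marks intervals above 0 and blue intervals below 0, thick bars are group medians, and the median of the last group lies at 0.25 while those of the groups before it lie between -0.26 and 0.11.

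The remaining groups had medians between -0.26 and 0.11. ZNF653 to ZNF791 had a median of -0.26 over 9 measured members, 2 of them positive, with no interval that left 0. ZNF101 to ZNF254 had 0.11 over 11 members, and 3 intervals lay above 0, those of ZNF430 (113 and 75 counts), ZNF714 (168 and 130) and ZNF254 (388 and 303). ZNF557 to ZNF846 had -0.045 over 13 members, ZNF807 to ZNF792 had 0.064 over 5, ZNF565 to ZNF573 had -0.0083 over 17, and ZNF575 to ZNF296 had 0.056 over 24. ZNF175 to ZNF331 had -0.0082 over 19.

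The median of ZNF175 to ZNF331 covered stretches with unlike values, marked off in windows of 0.5 Mb after the values were seen. In the 9 members from ZNF175 to ZNF841, 7 were measured and 4 had an interval above 0, against 19.7% of all genes. These were ZNF613 with 39 and 19 counts, ZNF614 with 189 and 137, ZNF432 with 77 and 40, and ZNF841 with 93 and 53. The others measured there, ZNF175, ZNF350 and ZNF615, had log2FC values of -0.27, -0.11 and -0.20, with intervals that included 0. Among the next 11 members, ZNF616 to ZNF701, the 3 measured were ZNF616 with 33 and 16 counts, ZNF766 with 488 and 412, and ZNF480 with 865 and 653, and each had an interval above 0. Of the next members, ZNF83 to ZNF160, 3 were measured, and only ZNF160, with 155 and 229 counts, had an interval below 0. In the last window, ZNF415 to ZNF331, 6 were measured with a median of -0.0086. There 1 had a log2FC above 1 and each interval included 0. ZNF350, a corepressor partner of BRCA1, lies among the higher genes with 81 and 87 counts and a log2FC of -0.11 (-0.57 to 0.34). Neighbouring measured members in a group had log2FC values that correlated with Spearman's rho of 0.252 over 148 pairs, and of 0.217 over the 123 pairs with at least 50 counts each. Some neighbours overlap, and the part of shared reads in these values was not tested.

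ZNF304, whose product is known to direct TRIM28, SETDB1 and DNMT1 to promoters it silences, had the largest log2FC among members with at least 50 counts. It had 117 counts in sh-MBD2 and 40 in sh-NC, or 4.74 and 1.66 TPM, a log2FC of 1.53 (1.0 to 2.1). It overlaps no other counted gene. ZNF583 and ZNF582 follow, neighbours on opposite strands. ZNF583 had 56 and 21 counts and a log2FC of 1.39 (0.66 to 2.20). ZNF582, a gene known to be methylated in cervical cancer, had 36 and 16 counts and 1.14 (0.27 to 2.11).

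Next came ZNF544 with 111 and 53 counts and a log2FC of 1.05 (0.57 to 1.56), and ZNF772 with 92 and 44 and 1.05 (0.52 to 1.61). ZNF544 shares 12.1% of its 75-base stretches with transcripts of other genes, so part of its reads may be uncertain. ZNF613 had a log2FC of 1.01 (0.20 to 1.90), ZNF432 of 0.93 (0.37 to 1.53) and ZNF132 of 0.90 (0.29 to 1.54), the last with 66 and 35 counts. All 8 were under 5 TPM in both libraries. Of these 8, 6 lie in the last group and ZNF613 and ZNF432 in the group before it. Among members with fewer than 50 counts, 4 more had a log2FC above 1. The interval lay above 0 for ZNF542 (24 and 3 counts) and ZNF616 (33 and 16), and included 0 for ZNF813 (13 and 4) and ZNF8 (10 and 4).

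ZNF460 had the lowest value among members with at least 50 counts. It had 49 and 97 counts, or 2.56 and 5.20 TPM, a log2FC of -0.99 (-1.52 to -0.48). It lies in the last group, 4 members after ZNF71 and 2 before ZNF304, and next to ZNF805, which had 66 and 88 counts and a log2FC of -0.42 (-0.91 to 0.053). ZNF160, a KRAB gene known to repress TLR4, had 5.78 and 8.77 TPM and a log2FC of -0.57 (-0.88 to -0.27). ZNF784 (75 and 110 counts) had -0.56 (-1.0 to -0.12), ZNF566 (180 and 252) had -0.49 (-0.78 to -0.21), and ZNF266 (134 and 186) had -0.48 (-0.81 to -0.15). For ZNF846 (36 and 53 counts), ZNF555 (48 and 69) and ZNF699 (32 and 45) the log2FC was between -0.56 and -0.49 and the interval included 0. The member below -1 was ZNF738, with 3 and 9 counts and a ratio of 0.331 (0.0577 to 1.33).

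**Figure D4:**
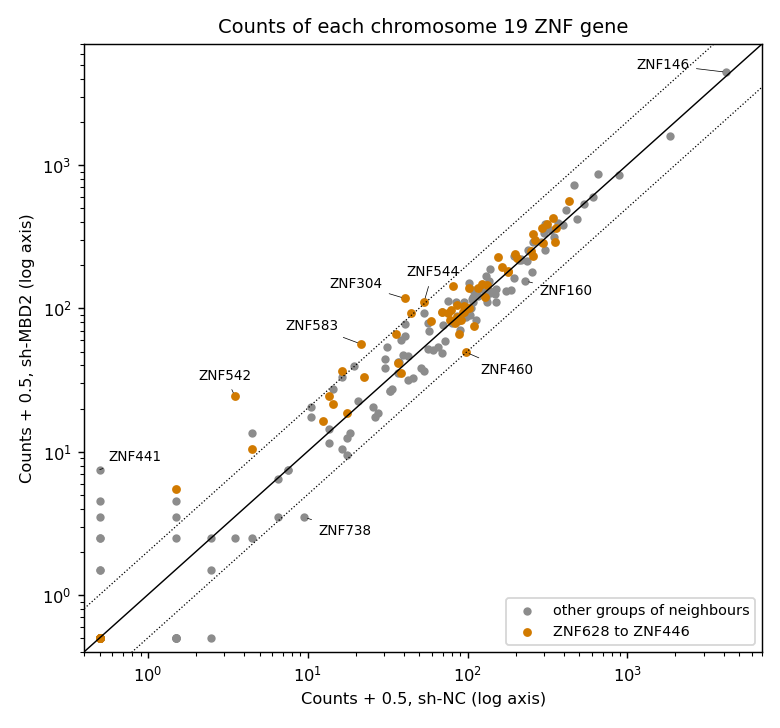
Counts of each member in sh-MBD2 against sh-NC (both log axes, 0.5 added), with the last group of neighbours in orange and the others in grey. The solid line marks equal scaled counts and the dotted lines a log2FC of 1 and -1, with ZNF304 (117 and 40 counts) above the band and ZNF460 (49 and 97 counts) at its lower edge.

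The most abundant members differed little. ZNF146 had 4446 and 4162 counts and a log2FC of 0.086 (0.025 to 0.148). ZNF787 had 0.35 (0.17 to 0.54) and ZNF507 had -0.23 (-0.33 to -0.14). For ZNF302 (-0.045), ZNF580 (-0.058) and ZNF581 (-0.17) the interval included 0. ZNF260, at 22.3 and 14.7 TPM with 722 and 464 counts, had a log2FC of 0.63 (0.46 to 0.80).

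Of 10 genes listed because their promoters are known to be methylated in cancers, 4 had no read in either library. These were ZNF382, ZNF577, ZNF667 and ZNF677. ZNF471 had 5 and 1 counts. The 5 with at least 10 counts had a median log2FC of 0.85, 4 of them positive, and the interval lay above 0 for ZNF132 and ZNF582. Over all genes, 48.9% had a positive log2FC and 19.7% an interval above 0. The 4 positive genes, ZNF132, ZNF154, ZNF582 and ZNF671, all lie in the last group of neighbours, where 74.1% of measured members were positive. ZNF671 had 24 and 13 counts with 0.85 (-0.16 to 1.97), and ZNF154 had 16 and 12 with 0.39 (-0.77 to 1.62). ZNF331, an imprinted gene, had 534 and 535 counts, or 18.5 and 19 TPM, with -0.012 (-0.19 to 0.16). The list thus held 4 genes without a read, 2 genes under 4 TPM with an interval above 0, and ZNF331 at nearly equal counts.

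Of 5 members listed as known to bind retrotransposons, 1 reached 10 counts summed, against 67.1% of all members and 31.0% of all genes. ZNF91, a binder of SVA elements, had 2 and 2 counts, and ZNF93, a binder of L1 elements, had none. ZNF429 had none and ZNF649 had 1 and 2. ZNF91, ZNF93 and ZNF429 lie in the group ZNF101 to ZNF254, where 25 of 36 members had at most 3 counts in each library. ZNF765 had 216 and 216 counts, or 8.27 and 8.48 TPM, with a log2FC of -0.0088 (-0.29 to 0.27). ZNF274, which binds the 3′ ends of other zinc finger genes and recruits SETDB1 to them, had 425 and 341 counts and a log2FC of 0.31 (0.10 to 0.52). It lies in the last group of neighbours.

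All 25 genes of the KRAB silencing machinery were measured, and their median log2FC was 0.076. None passed 1 or -1. The interval lay above 0 for 9 of the 25 and below 0 for 5 of the 25, against 19.7% and 18.4% of all genes. All 25 had over 5 TPM, and among all genes with a mean of 5 TPM or more the shares were 23.9% and 22.4%. Intervals narrow as counts rise, and many of the 25 had high counts. TRIM28, the corepressor bound by KRAB, had 7092 and 5729 counts, or 419 and 347 TPM, with 0.30 (0.25 to 0.35). DNMT3B, a de novo DNA methyltransferase, had 474 and 309 counts with 0.61 (0.40 to 0.82). EHMT2, a histone methyltransferase, had 0.36 (0.20 to 0.52) and UHRF1, which guides maintenance methylation, 0.24 (0.12 to 0.37). PPHLN1, a subunit of the HUSH complex, had 0.26, whereas FAM208A, another subunit, had -0.23 (-0.32 to -0.15). CBX5, a heterochromatin protein, had 6585 and 8085 counts with -0.30 (-0.35 to -0.26). Of the NuRD remodelers, CHD3 had -0.27 (-0.32 to -0.22) and CHD4 had 0.19 (0.13 to 0.25). The NuRD deacetylases HDAC1 and HDAC2 had -0.12 (-0.22 to -0.032) and 0.044 (-0.041 to 0.13). SETDB1 had 452 and 479 counts and -0.093 (-0.28 to 0.096).

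Members with and without a KRAB A box pattern had nearly equal median log2FC but different levels. Among 236 members with a coding transcript in GENCODE 29, the longest reading frame of 199 held a KRAB A box pattern, and the median number of fingers was 12 (0 to 39). ZNF729, with 39 fingers, and ZNF208, with 36, had no reads, and ZNF91 with 32 had 2 in each library. Measured members with the KRAB pattern (131) had a median log2FC of 0.064, and those without (28) had 0.061. Their median levels in sh-MBD2 were 4.64 and 12.1 TPM. Members with 12 or more fingers (86 measured) had a median log2FC of 0.035 and the others (73) had 0.086. Members of the plus strand (93) had 0.080 and those of the minus strand (70) 0.051.

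Some reads of these genes cannot be placed with certainty, because members overlap other genes or share sequence with them. Of the 163 measured members, 83 overlap another gene with counts in the deposited coordinates, with a median log2FC of 0.038, and the 80 others had 0.088. Among 161 measured members with a transcript, 23 share over 10% of their 75-base stretches with other genes. Without these and those lacking a transcript, the median over 138 members was 0.038 in place of 0.072. Of the 58 members with no read, 10 share over 10%, so lost reads are possible there. The part of either in the differences between the libraries was not tested beyond these medians and the values without such members.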

How the data were processed

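RNA libraries (1 each) of TFK1 cells with sh-MBD2 and with sh-NC were analyzed. The authors deposited unnormalized counts per gene and, in a second table, TPM, which was handled as a signal because the deposited TPM sum to 1000000 only after repeated symbols are removed. The submitters' processing notes name fastp, HISAT2 2.1.0, featureCounts, DESeq 1.18.1 and GRCh38.p13. Neither the annotation nor the strand setting is given in the sources used here. Of 63723 lines, 46 were overflow text, and 1 row per symbol was kept, which left 56638 genes. The 243 members take 248 rows, 5 symbols having several.

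Counts were scaled with TMM factors (edgeR 4.0.16, R 4.3.3). Log2FC is sh-MBD2 over sh-NC with 0.5 counts (scaled to the library) added, computed where both libraries together had at least 10 counts. The 95% intervals are Clopper-Pearson intervals of the read split (scipy 1.17.1) and, like the floor of 3 counts, cover counting error only. No test across replicates was possible with 1 library per condition. The scripts were tested on simulated data.

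Groups of neighbours were split at gaps over 1 Mb and described when at least 5 members were measured. Named genes were MBD2, the 8 highest and 8 lowest members with at least 50 counts, the 6 with the highest mean TPM, and every gene of the methylation, retrotransposon, ZNF274 and KRAB silencing lists. Others, such as ZNF260, ZNF350, ZNF441 and ZNF729, were named after their values were seen. Members and lists were chosen with earlier results of these data known. Of the members, 241 matched GENCODE 29 (GRCh38) by identifier and 0 had the same coordinates, so the deposited coordinates were never joined to a genome. Promoters came from RefSeq (GRCh38.p14). Protein features were read from the longest open reading frame of GENCODE 29 transcripts, in place of the RefSeq proteins that had been planned. A KRAB A box pattern was called at 14 or more matches over 31 positions, where the lowest call had 16 and the highest non-call 13. Alternatives were DESeq2 1.42.0 size factors, total counts, upper-quartile factors, priors of 2 and 0.1, log2 of TPM plus 0.1 or 1, and minimums of 1 and 50 counts.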

Additional observations from a re-analysis of the deposited data

How the results depend on the processing

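No paired analysis was possible because there is only 1 library of each kind. The numbers of members past 1 and -1 rest on genes with few reads. Above 1 there were 10 members in the main setting, 6 with TPM plus 0.1, 1 with TPM plus 1, 20 with at least 1 count and 6 with at least 50 counts. Below -1 there was 1 member in the main setting, 2 with total counts, 0 with TPM plus 1, 7 with at least 1 count and 0 with at least 50 counts. The median of the other genes of chromosome 19 went from 0.0001 to -0.026 with TPM plus 0.1. Of 145 group medians and counts recomputed under an alternative, these 9 were labelled moved and 136 were not. The label allowed wide shifts in a median, since the change of ZNF557 to ZNF846 given below is among the 136. All 475 values of single genes stayed within their counting interval. A minimum count cannot alter the log2FC of a single gene. Values under minimums of 1 and 50 counts were therefore fixed in advance and are no check. No value whose interval excluded 0 changed sign. Medians near 0 were less stable. Without members that overlap a counted gene, ZNF557 to ZNF846 went from -0.045 to 0.13, ZNF565 to ZNF573 from -0.0083 to -0.15 and ZNF175 to ZNF331 from -0.0082 to -0.15, and the cause was not tested. With at least 1 count, ZNF807 to ZNF792 went from 0.064 to 0.0095. The median of the last group ranged from 0.18 to 0.29 and that of all members from 0.024 to 0.088, while the median of all genes ranged from -0.033 to 0.0001. The gap of 0.5 Mb, the restriction to members that overlap no counted gene and the restriction to members with under 10% shared stretches were chosen after seeing the data. With the smaller gap, the last group was divided into ZNF628 to ZNF71, with a median of 0.072 over 14 members, and ZNF264 to ZNF446, with 0.26 over 40. With 1 library per condition, variation between cultures could not be estimated.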
